A study of Homo sapiens with 6 samples.

Results

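The genes described here are 37 regulators of mitosis and proteins of the centromere, chosen by name: cyclins and the kinase they drive, mitotic kinases, checkpoint and anaphase-promoting complex factors, centromere, spindle and cytokinesis proteins. Kinesin motors were left out. The authors' deposited table listed 22 of the 37, out of 7150 genes listed in all, and 15 were not listed. RNA came from MDA-MB-231, an established human cell line of triple-negative breast cancer, with the genotype given as WT in both groups. The 3 control libraries came from cells labelled as having no treatment, and the 3 shikonin libraries from cells given 0.5 µM shikonin, a plant naphthoquinone, for 24 h. The labels write the unit of the dose with a lower-case m, which is read here as micromolar, and name no vehicle. Treated cells are compared with untreated ones. Genes are listed where the authors' DESeq2 test left them under 0.05 after adjustment and past 1.5-fold. The table holds no values for single libraries, so the depth is unknown and neither the spread nor the overlap of samples can be shown. It does not name the numerator, and its mark "up" is read as higher in shikonin. Separate cultures are not stated for the replicates, so the p-values speak for the spread of these 6 libraries alone, which may be technical.

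A cell enters mitosis when cyclin B and CDK1 become active, and leaves it when the anaphase-promoting complex marks securin and cyclin B for destruction. In between, kinetochores built on CENPA chromatin attach chromosomes to spindle fibres, and a checkpoint delays anaphase until every chromosome is attached. Most of these genes are transcribed only late in the cell cycle, and their promoters commonly carry CCAAT boxes, bound by the factor NF-Y, and a cell cycle genes homology region (CHR), bound by the MuvB complex through LIN54. MuvB represses these genes in resting cells as part of DREAM and activates them together with B-MYB (MYBL2) and FOXM1 in dividing cells.

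The promoters of 6 genes are shown because they carry these elements in genes of all 3 outcomes: CKS2, CDC20 and CCNB2, which were higher with shikonin, PLK1, which was not listed, and MKI67 and CENPF, which were lower. Each is the 150 bases before the RefSeq transcription start (GRCh38.p14), read 5′ to 3′ on the strand of the gene. Capitals mark TTTGAA, the CHR core, and CCAAT, or either of them on the other strand (TTCAAA and ATTGG), and neighbouring or overlapping matches run together. The stretches lie at chr9:89311045-89311194, plus strand for CKS2, chr1:43358831-43358980, plus strand for CDC20, chr15:59104996-59105145, plus strand for CCNB2, chr16:23678739-23678888, plus strand for PLK1, chr10:128126424-128126573, minus strand for MKI67 and chr1:214603045-214603194, plus strand for CENPF.
CKS2: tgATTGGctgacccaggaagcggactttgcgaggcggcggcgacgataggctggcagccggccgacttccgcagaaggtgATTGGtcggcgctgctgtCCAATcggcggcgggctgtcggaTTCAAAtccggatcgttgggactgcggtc
CDC20: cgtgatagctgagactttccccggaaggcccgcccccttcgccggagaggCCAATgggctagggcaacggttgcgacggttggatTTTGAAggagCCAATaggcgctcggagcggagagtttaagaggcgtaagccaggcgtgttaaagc
CCNB2: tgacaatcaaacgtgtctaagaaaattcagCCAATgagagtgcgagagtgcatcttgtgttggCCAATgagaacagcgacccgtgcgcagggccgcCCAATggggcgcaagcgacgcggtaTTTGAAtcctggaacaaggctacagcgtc
PLK1: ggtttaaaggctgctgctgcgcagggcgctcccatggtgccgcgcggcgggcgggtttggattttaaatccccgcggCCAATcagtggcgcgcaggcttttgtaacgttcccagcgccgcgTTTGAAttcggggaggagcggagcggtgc
MKI67: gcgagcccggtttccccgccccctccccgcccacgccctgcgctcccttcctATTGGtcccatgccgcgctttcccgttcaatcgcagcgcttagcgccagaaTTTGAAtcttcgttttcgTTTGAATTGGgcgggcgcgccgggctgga
CENPF: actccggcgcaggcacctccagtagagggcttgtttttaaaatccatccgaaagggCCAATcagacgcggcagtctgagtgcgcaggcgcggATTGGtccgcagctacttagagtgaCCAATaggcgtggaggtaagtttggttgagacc

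Shikonin-treated cells had higher RNA of CDK1 with its partner CKS2, of Aurora kinases A and B, and of UBE2C, PTTG1 and CDC20. RNA of 5 large proteins of chromosomes, kinetochores and the spindle was lower: MKI67, CENPF, CENPE, ASPM and TOP2A. Of the 37 genes, 17 were listed as higher (45.9%) and 5 as lower (13.5%), per the authors' deposited table. Among about 14255 genes tested, a number recovered from the adjusted p-values, 25.5% were listed as higher and 24.7% as lower. The share listed in either direction was 59.5% of the members against 50.2% of all genes tested. Listed members had a median mean of 1498 normalized counts, against 591 over all listed genes. The shares were not matched for level of expression. A difference of at least 2-fold was listed for 9 members as higher (24.3%, against 16.4% of genes tested) and for 5 as lower (13.5%, against 14.6%). The median log2 fold change was 0.93 over the 22 listed members and 0.60 over all listed genes of the authors' deposited table. Whether each of the 15 unlisted members was tested is not known here, and an unlisted gene may have changed by less than 1.5-fold or failed the p threshold. In RNA from whole cultures, a change in the share of cells in mitosis and a change in RNA per cell cannot be told apart, in either direction.

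**Figure D1:**
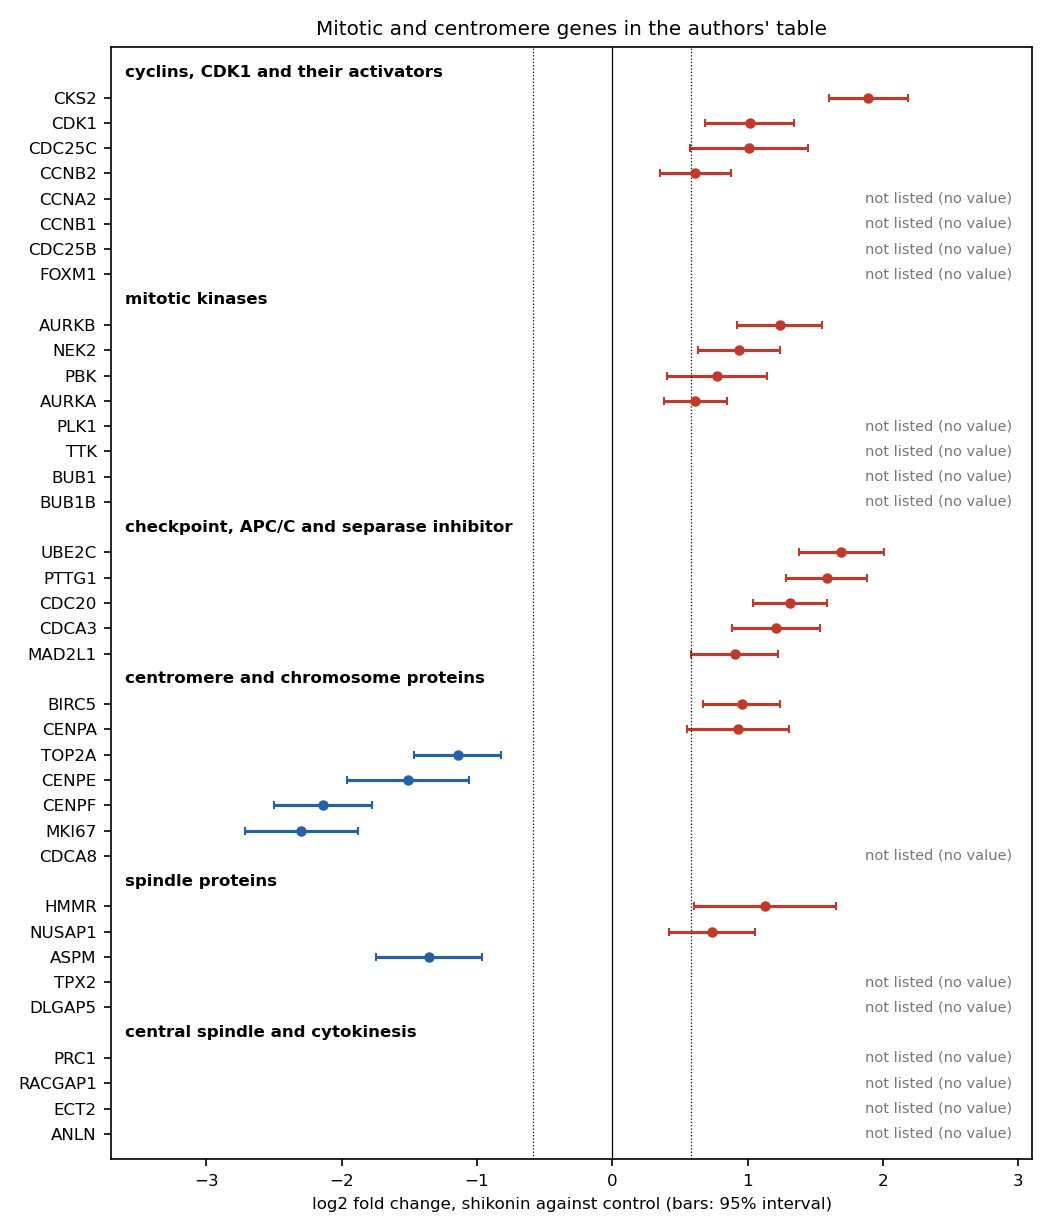
Log2 fold change of each member (horizontal axis, shikonin against control) with its 95% interval from the authors' standard error, grouped by role; dotted lines mark 1.5-fold and unlisted genes have no value. All 5 genes of the checkpoint and anaphase-promoting complex group are to the right, and 4 of the 5 lower genes are centromere and chromosome proteins. Of all genes tested, 25.5% were listed as higher and 24.7% as lower.

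All 5 members in the group of checkpoint genes, partners of the anaphase-promoting complex and securin, the inhibitor of separase, were higher. Over all genes tested, 25.5% were listed as higher. Transcripts of UBE2C, PTTG1, CDC20 and CDCA3 are below 2500 nt, a range where 91.9% of listed protein-coding genes were higher. UBE2C, the ubiquitin-conjugating enzyme that works with the complex, was 3.23-fold higher (95% interval 2.60 to 4.01, adjusted p = 9.17e-25), per the authors' deposited table. Its implied mean, solved from the deposited mean and fold, went from 1841 normalized counts in control to 5950 in shikonin. PTTG1, which encodes securin, the guard of sister chromatid cohesion, rose 3.00-fold (2.44 to 3.68, adjusted p = 4.50e-24) by the authors' deposited table, from an implied 1793 to 5374 normalized counts. CDC20, the coactivator that the checkpoint holds back, had an implied 2992 normalized counts in control and 7426 in shikonin, and was 2.48-fold higher (2.05 to 3.00, adjusted p = 7.51e-20), per the authors' deposited table. CDCA3, an F-box-like protein of mitotic entry, was 2.32-fold higher (1.85 to 2.90), per the authors' deposited table. MAD2L1, the checkpoint protein that binds CDC20, was 1.87-fold higher (log2 fold change 0.91 ± 0.16, adjusted p = 1.22e-07), per the authors' deposited table. These are 5 chosen genes: the core subunits of the complex, given further on, were mixed, and the checkpoint genes TTK, BUB1 and BUB1B were not listed.

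Of the 8 cyclins, CDK1 partners and activators, 4 were higher (50%) and none was listed as lower, against 25.5% and 24.7% of genes tested. The 4 higher ones have transcripts below 2500 nt, where 91.9% of listed protein-coding genes were higher. CKS2, a small subunit that docks CDK1 to phosphorylated substrates, rose most of all members, by 1.89 ± 0.15 on the log2 scale (± standard error, adjusted p = 5.51e-35), per the authors' deposited table. That is a 3.71-fold difference (3.03 to 4.54), from an implied 737 to 2731 normalized counts. CDK1, the mitotic kinase itself, was 2.02-fold higher (1.61 to 2.54, adjusted p = 8.02e-09), per the authors' deposited table. CDC25C, a phosphatase that activates CDK1, was 2.01-fold higher (1.49 to 2.72), at implied means of 255 and 513 normalized counts from the authors' deposited table. CCNB2, cyclin B2, stood just inside the fold threshold at 1.53-fold (1.28 to 1.83, adjusted p = 1.27e-05), per the authors' deposited table. Cyclin A2 (CCNA2), cyclin B1 (CCNB1), the phosphatase CDC25B and the transcription factor FOXM1 were not listed. The kinase subunit and its small partner were therefore listed as higher, while the main mitotic cyclin was not listed.

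Among 8 kinases, 4 were higher (50%, against 25.5% of genes tested), none was listed as lower (24.7% of genes tested) and 4 were not listed. Transcripts of the 4 higher kinases are below 2500 nt, where 91.9% of listed protein-coding genes were higher. AURKB, the catalytic subunit of the chromosomal passenger complex, was 2.35-fold higher (1.90 to 2.92, adjusted p = 8.83e-14), per the authors' deposited table. AURKA, the centrosomal and spindle Aurora kinase, was 1.53-fold higher (1.30 to 1.80, adjusted p = 1.06e-06), per the authors' deposited table, beside CCNB2 at the edge of the fold threshold. The intervals of the Aurora kinases did not overlap. NEK2, a kinase of centrosome separation, was 1.92-fold (1.55 to 2.36) and PBK, a mitotic MAP kinase kinase-like protein, 1.71-fold higher (1.33 to 2.21), per the authors' deposited table. PLK1, the checkpoint kinases TTK and BUB1, and the checkpoint pseudokinase BUB1B were not listed.

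Centromere and chromosome proteins split. CENPA, the histone H3 variant that marks the centromere, was 1.90-fold higher (1.47 to 2.47, adjusted p = 3.99e-06), while CENPF and CENPE, which bind the outer kinetochore, were 4.40-fold (3.42 to 5.66, adjusted p = 5.48e-29) and 2.85-fold lower (2.08 to 3.90, adjusted p = 3.01e-10), per the authors' deposited table. MKI67, the Ki-67 antigen that coats mitotic chromosomes and serves as the usual proliferation marker, changed most among the lower members, with a log2 fold change of -2.30 ± 0.21 (adjusted p = 1.94e-25), per the authors' deposited table. Its implied mean was 5799 normalized counts in control and 1181 in shikonin, a 4.91-fold fall (3.67 to 6.56). TOP2A, the topoisomerase that untangles sister chromatids, was 2.21-fold lower (1.77 to 2.75, adjusted p = 2.10e-11), per the authors' deposited table, with implied means of 5326 and 2415 normalized counts. BIRC5, survivin of the chromosomal passenger complex, was 1.94-fold higher (1.59 to 2.36), per the authors' deposited table, and CDCA8, borealin of the same complex, was not listed. MKI67 and UBE2C, both common proliferation markers, thus differed in opposite directions in the same libraries.

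Spindle proteins were mixed as well. HMMR, a spindle assembly protein, was 2.18-fold higher (1.52 to 3.14, adjusted p = 7.08e-05), per the authors' deposited table, and had the lowest mean of the listed members at 118 normalized counts. NUSAP1, which bundles spindle microtubules, was 1.66-fold higher (1.33 to 2.08), and ASPM, a spindle pole protein, 2.56-fold lower (1.95 to 3.36, adjusted p = 8.71e-11), per the authors' deposited table. TPX2, the activator of AURKA, and DLGAP5, which stabilizes kinetochore fibres, were not listed. None of the 4 central spindle and cytokinesis genes was listed: PRC1, RACGAP1, ECT2 and ANLN.

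**Figure D2:**
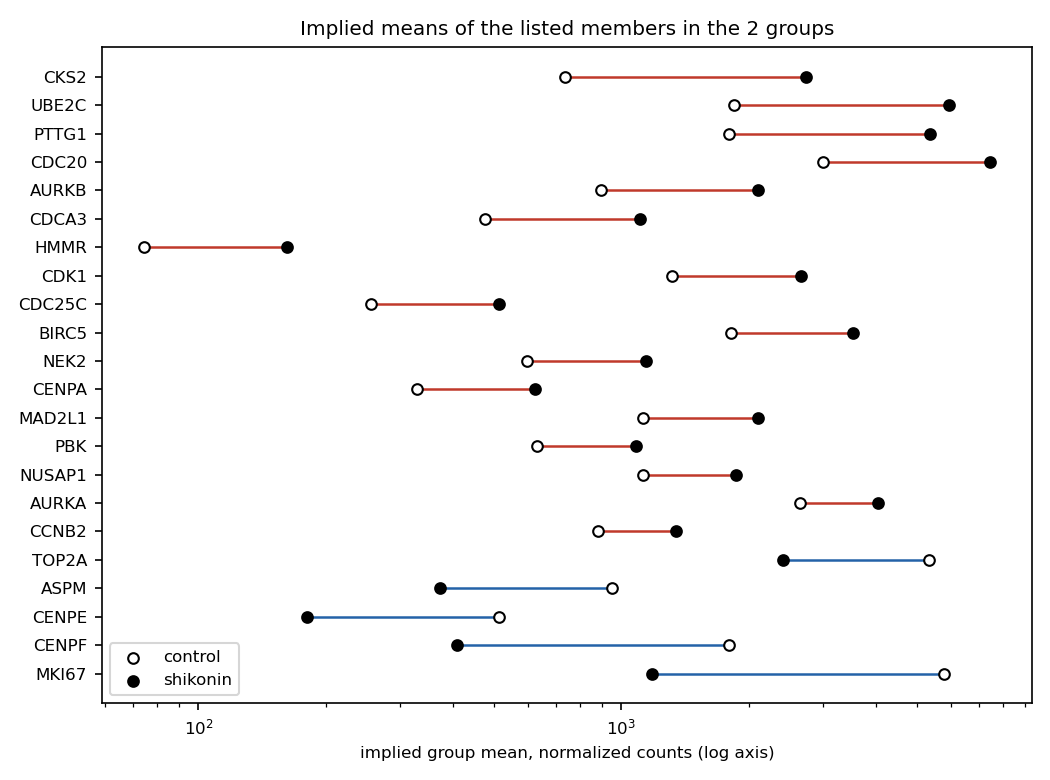
Implied mean of normalized counts in control (open circles) and shikonin (filled circles) for the 22 listed members, ordered by log2 fold change, on a log axis; these are solved from the authors' mean and fold and carry no error. CDC20 is the highest in shikonin at 7426, and MKI67 goes from 5799 to 1181.

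Direction among the members ran with the length of the mature transcript, taken from the longest principal transcript in GENCODE 29 (GRCh38). The 17 higher members had transcripts of 613 to 5468 nt (median 1913), the 15 unlisted ones 2169 to 4787 nt (median 3229) and the 5 lower ones 5758 to 12678 nt (median 10307). Below 2500 nt lay 14 higher, 3 unlisted and 0 lower members. From 2500 to 4500 nt there were 2 higher, 11 unlisted and 0 lower, and from 4500 nt on 1 higher, 1 unlisted and 5 lower. Over all listed protein-coding genes the share higher in these bands was 91.9%, 43.4% and 9.04%. Spearman's rho between length and log2 fold change was -0.76 over the 22 listed members and -0.70 over 6886 listed protein-coding genes, a description across genes that share the same 6 libraries. For the genomic span of the gene, rho was -0.78 over the members and -0.50 over 6920 listed protein-coding genes. Mature length and span thus cannot be told apart among the members. The part of transcript length in these differences was not tested. MAD2L1 stood apart as the only higher member above 2988 nt: its transcript has 5468 nt but a coding sequence of only 615 nt. Coding sequences ran from 237 to 2172 nt in the higher members, from 840 to 3372 nt in the unlisted ones and from 4593 to 10431 nt in the lower ones.

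Members were also set against genes of like length. The listed protein-coding genes were divided into 10 classes of transcript length, and each member was ranked by log2 fold change within its class. The median rank of the 22 members was percentile 54.5, with 14 above 50. MAD2L1 stood at percentile 92.0, CKS2 (613 nt, chromosome 9 from 89311198 to 89316703, 3 exons) at 75.2, CDC20 (1777 nt, chromosome 1 from 43358955 to 43363203, 10 exons) at 70.1 and UBE2C (850 nt, chromosome 20 from 45812576 to 45816957, 6 exons) at 64.9. At the other end CCNB2 (1556 nt) stood at 4.93 (12.2 with the transcript of longest coding sequence, where the same length falls in the next class), MKI67 (12678 nt, chromosome 10 from 128096659 to 128126385, 15 exons) at 13.2, CENPF (10307 nt, chromosome 1 from 214603195 to 214664588, 20 exons) at 20.9 and AURKA (2248 nt) at 21.5. CENPE (52.8) and ASPM (60.4) lay near the middle of their class. These ranks are among listed genes only, all past 1.5-fold, so they depend on direction and distance from the threshold. Of the listed genes, 96.8% were higher in the class of CCNB2, 81.7% in that of AURKA and 11.5% in that of MAD2L1. A higher gene near the threshold must therefore rank low in the classes of CCNB2 and AURKA. Any higher gene must rank high in that of MAD2L1. In the class of MKI67 and CENPF 4.50% were higher, and MKI67 ranked fairly low in it.

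**Figure D3:**
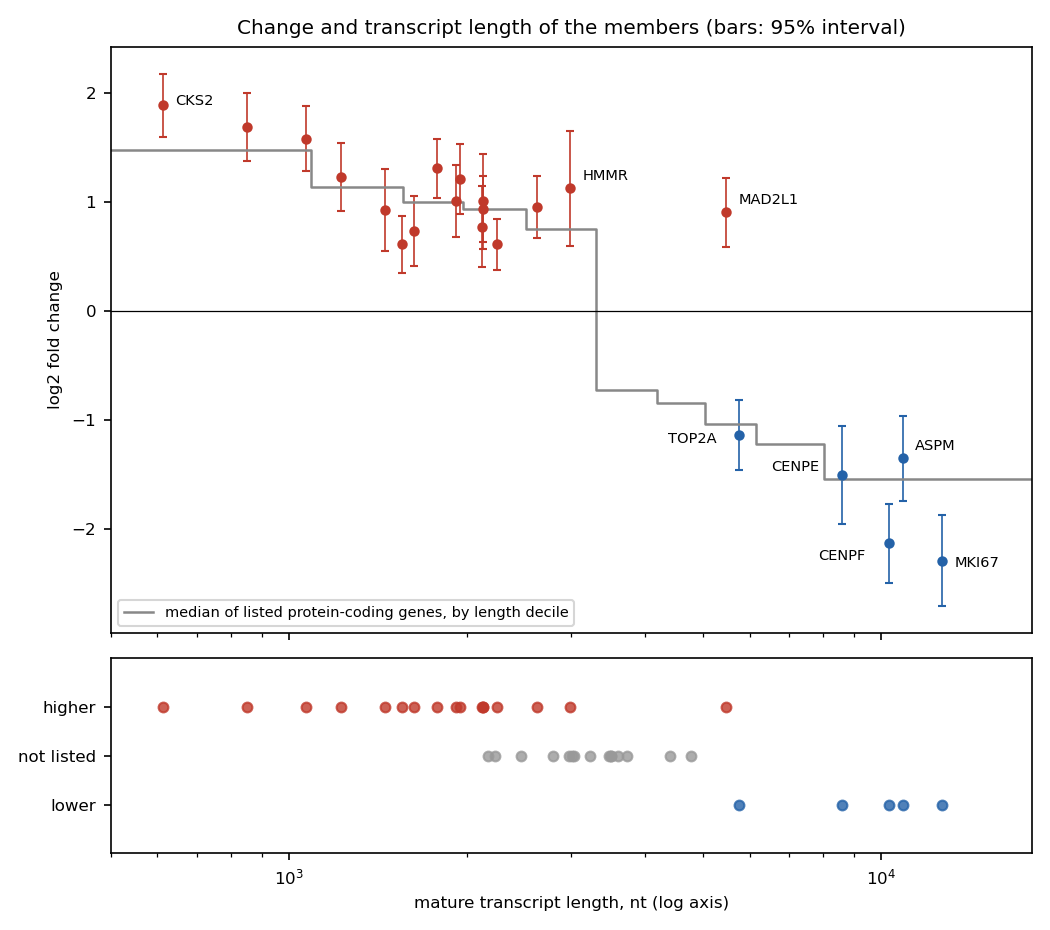
Upper panel: log2 fold change with its 95% interval of the 22 listed members against mature transcript length (log axis), with the median of the listed protein-coding genes in each length class as a grey step; the step is never near 0 because the table holds no gene under 1.5-fold. Lower panel: lengths of the higher, unlisted and lower members, where the unlisted ones lie between 2169 and 4787 nt.

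The promoter elements shown above occurred in members of every outcome. RefSeq promoters (GRCh38.p14), from 250 bases before to 50 after each start, were matched by symbol for 29 of the 37 members, leaving TTK, AURKA, BIRC5, PBK, UBE2C, RACGAP1, TPX2 and FOXM1 without one. A gene was counted when any of its starts had the letters on either strand. TTTGAA was found in 21 of the 29 (72.4%, exact 95% binomial interval 52.8 to 87.3), against 18.2% of 27305 genes in the table and 13.4% of 5567 listed genes. By direction it was in 10 of 13 higher, 7 of 11 unlisted and 4 of 5 lower members. CCAAT was in 26 of the 29 (89.7%, 72.6 to 97.8) against 39.7% of all genes. It was in 13 of 13 higher, 9 of 11 unlisted and 4 of 5 lower members. Both elements stood in the same window in 19 of 29 members and in 7.26% of all genes. The variant TTTAAA was in 37.9% of members and 14.5% of all genes, TATAAA in 10.3% and 14.0%, and GCGGGAA, an E2F-like core, in 13.8% and 7.82%. GCGGGAA was also in 12.6% of listed genes and 27.6% of the other mitotic genes, so the members do not stand out by it. In MKI67 the matches to TTTGAA and CCAAT share 1 base.

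The position was alike in several members. The CHR core began 29 bases before the start in CKS2 (on the reverse strand), CCNB2, PLK1 and MKI67, as the capitals nearest the end of each of those stretches show. MKI67 has a second match 47 bases before the start. In CDC20 matches began 65 and 178 bases before the start, and in CENPF the only match lay 40 bases after the start, outside the stretch printed. A CHR core beginning within the last 60 bases before the start was found in 13 of 29 members (44.8%) and in 3.76% of all genes, a window chosen after the matches were seen. MKI67 and CCNB2 thus carry the same element at the same distance and were listed in opposite directions. CCNB2 was only 1.53-fold higher, near the threshold, and the transcripts differ in length (1556 nt for CCNB2, 12678 nt for MKI67). The part of the element in either difference was not tested. These matches describe letters, not bound sites.

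**Figure D4:**
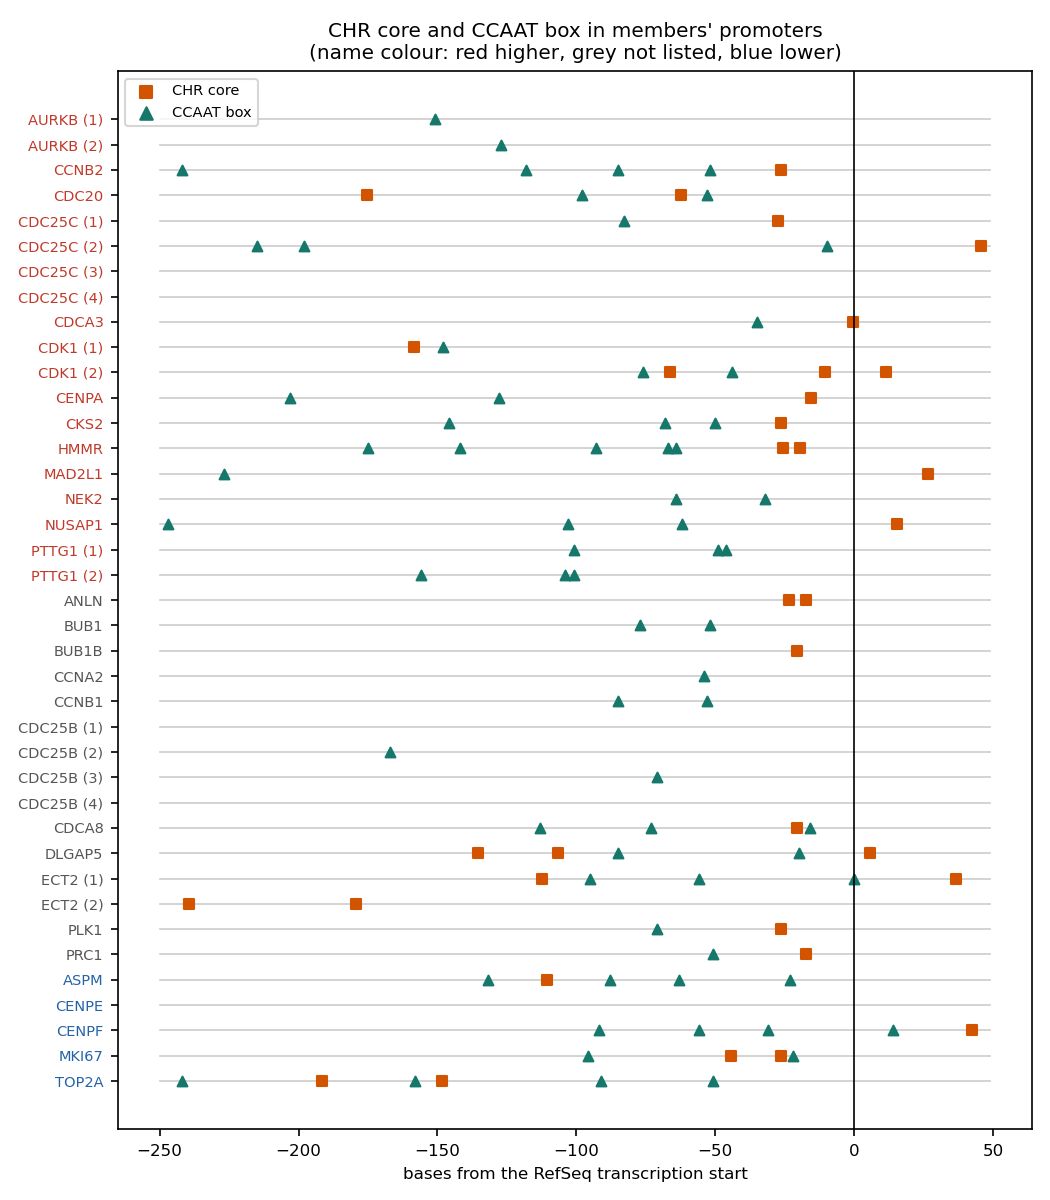
Matches to the CHR core (squares) and the CCAAT box (triangles) on either strand in the RefSeq promoters of 29 members, by distance from the transcription start in bases; a number after a name tells apart the starts of one gene, and name colours give the direction. A CHR core within 60 bases before the start is seen in 7 higher, 5 unlisted and 1 lower gene.

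Other genes of mitosis were taken from 6 lists of 181 genes that hold none of the members. Of these, 54 were higher, 48 lower and 79 not listed, per the authors' deposited table, with a median log2 fold change of 0.63 over the 102 listed. The shares, 29.8% higher and 26.5% lower, lie near the 25.5% and 24.7% of all genes tested, against which each list below is to be read. The kinetochore and centromere list was 23 higher and 7 lower of 49. CENPW and CENPM, small subunits of the inner kinetochore, were 4.41-fold (3.27 to 5.94) and 3.85-fold higher (2.85 to 5.19), per the authors' deposited table. KNL1, the scaffold on which BUB1 and BUB1B dock, was 4.18-fold lower (3.02 to 5.78), and CLASP1, a microtubule-stabilizing protein, 3.20-fold lower (2.38 to 4.32), per the authors' deposited table. All 4 subunits of the NDC80 complex, the microtubule coupler of the kinetochore, were higher: NDC80 by 1.73-fold, NUF2 by 1.76-fold, SPC24 by 1.91-fold and SPC25 by 2.45-fold, per the authors' deposited table, a set named after its values were seen. Their transcripts are also below 2500 nt, where 91.9% of listed protein-coding genes were higher. INCENP, the scaffold of the passenger complex that holds AURKB and BIRC5, was 1.89-fold lower (1.49 to 2.40), per the authors' deposited table, also named after its value was seen.

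For the anaphase-promoting complex the count was 6 higher and 3 lower of 17. ANAPC15 and CDC26, small subunits, were 2.93-fold (2.24 to 3.84) and 2.81-fold higher (2.12 to 3.73), while FZR1, the coactivator CDH1 of late mitosis, and ANAPC1, a scaffold subunit, were 1.85-fold and 1.79-fold lower (1.38 to 2.31 for ANAPC1), per the authors' deposited table. Of 24 cohesin and condensin genes, 2 were higher, 12 lower and 10 not listed. NIPBL, the cohesin loader, was 3.45-fold lower (2.58 to 4.63) and SMC1A, a cohesin ring subunit, 2.86-fold lower (2.31 to 3.55), against NCAPH2 of condensin II and CDCA5 (sororin) at 1.70-fold (1.33 to 2.18) and 1.57-fold higher (1.23 to 2.00), per the authors' deposited table. Centrosome and spindle genes were 11 higher and 13 lower of 38. HAUS4 and HAUS1 of the augmin complex were 3.14-fold (2.42 to 4.09) and 2.68-fold higher (2.09 to 3.42), and AKAP9, a centrosomal scaffold, and SASS6, the centriole cartwheel protein, 6.57-fold (4.47 to 9.65) and 3.18-fold lower (2.15 to 4.72), per the authors' deposited table.

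Genes of mitotic entry and CDK control were 11 higher and 6 lower of 31. CDKN1C, the CDK inhibitor p57, was 6.87-fold higher (5.14 to 9.17) and CDKN3, a phosphatase that acts on CDKs, 3.99-fold higher (3.16 to 5.04), per the authors' deposited table. CDK6, a G1 kinase, was 5.77-fold lower (4.58 to 7.26) and LATS1, a Hippo pathway kinase, 4.18-fold lower (3.12 to 5.59), per the authors' deposited table. CKS1B, the paralog of CKS2, was 3.61-fold higher (2.87 to 4.55), per the authors' deposited table, an interval that overlaps that of CKS2, and was named after its value was seen. Regulators of these promoters were counted too: of 22 DREAM, E2F and MuvB genes 1 was higher and 7 lower, with 14 not listed. MYBL2 (B-MYB) was 2.13-fold higher (1.61 to 2.82), while RBL1 (p107) and E2F3 were 3.62-fold (2.70 to 4.85) and 3.12-fold lower (2.58 to 3.77), per the authors' deposited table. RB1, the retinoblastoma gene, had a log2 fold change of -0.64 ± 0.17, per the authors' deposited table. LIN54, which binds the CHR, and NFYA, a subunit of NF-Y, were 1.56-fold (1.18 to 2.06) and 2.34-fold lower (1.83 to 3.00), per the authors' deposited table, both named after their values were seen. The other NF-Y subunits NFYB and NFYC, and LIN9, LIN37, LIN52 and RBBP4 of MuvB, were not listed. Length ran with direction here too: rho was -0.86 over the 102 listed genes, and the median transcript was 1856 nt for higher and 5896.5 nt for lower ones. The part of length in these counts was not tested.

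**Figure D5:**
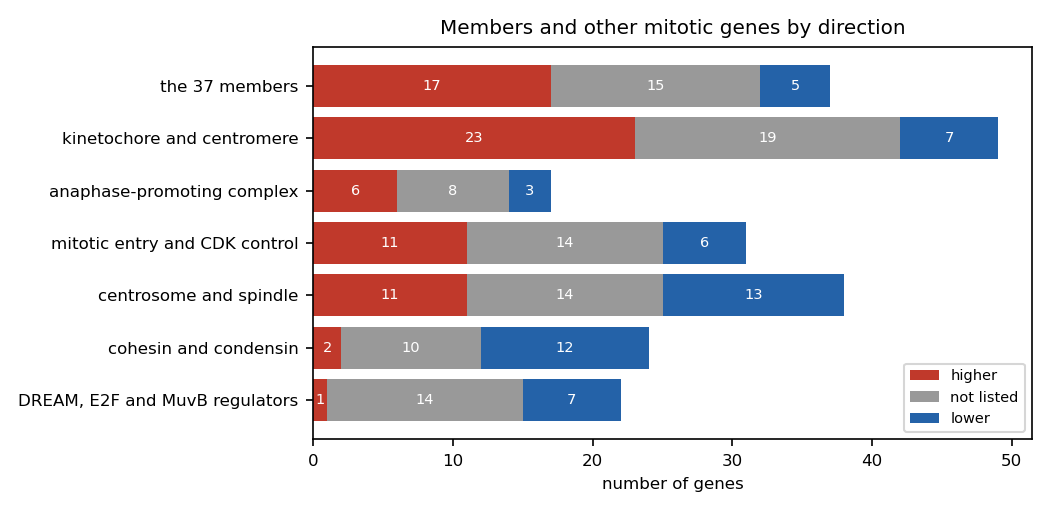
Number of genes higher, not listed and lower in shikonin (horizontal axis) for the members and for 6 other lists of mitotic genes. The members and the kinetochore list lean to higher (17 against 5, and 23 against 7), and cohesin and condensin to lower (2 against 12).

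Levels per length differed widely between members. Over both groups the mean normalized count per kb of transcript was 4583 for UBE2C, 3349 for PTTG1, 2931 for CDC20 and 2829 for CKS2, and 60.8 for ASPM, 40.4 for CENPE and 39.6 for HMMR. It was 275 for MKI67 and 672 for TOP2A. A few values may include reads of other genes, since no source used here gives the counter or its use of strand. GENCODE 29 names pseudogene copies of UBE2C (4), NEK2 and AURKA (2 each), and PTTG1, CDC20, CCNB2 and MKI67 (1 each), so these values are uncertain. On the opposite strand, HMMR-AS1 overlaps HMMR, FAM53C CDC25C, ESCO2 PBK, GNB3 CDCA3, AC108866.1 MAD2L1, AC092757.3 CCNB2, and the pseudogenes ABHD17AP3 and UBE2V1P13 CENPF. Reads of such pairs cannot be told apart without strand. Genes on the same strand overlap CENPA (SLC35F6), NUSAP1 (AC087721.1 and AC087721.2), CCNB2 (AC092757.2), CKS2 (MIR3153), NEK2 (FDPSP8), TOP2A (RF00019) and ASPM (SEPT14P12). Strand would not tell these apart.

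The count of higher members depends on the scaling assumed. With the implied totals of all listed genes set equal in both groups, each log2 fold change drops by 0.39. These totals cover only genes listed as changed, so they need not be equal and do not measure an error of scaling. Then 9 members stayed above 1.5-fold on the higher side, and the 5 lower ones stayed lower. AURKA, BIRC5, CCNB2, CENPA, MAD2L1, NEK2, NUSAP1 and PBK no longer passed that fold, with AURKA and CCNB2 at a log2 fold change of 0.22. CKS2, UBE2C and PTTG1 kept log2 fold changes of 1.5, 1.30 and 1.19. The levels of unlisted genes are not held, so the cell line can be checked only in part. Of 15 markers of the line and of breast cancer subtypes, 7 were higher (46.7%), 2 lower (13.3%) and 6 not listed. The hormone receptors ESR1 and PGR were among the last. Of all genes tested, 25.5% were listed as higher and 24.7% as lower. The higher ones included luminal or epithelial genes, namely FOXA1 (23.4-fold, from an implied 2.91 normalized counts in control), KRT18 (3.18-fold), KRT19 (2.80-fold), KRT8 (2.38-fold) and EPCAM (2.15-fold), and EGFR was 5.96-fold lower, per the authors' deposited table. CAV1 was also higher (1.63-fold), and the other lower marker was ERBB2 (1.99-fold), per the authors' deposited table. GATA3, CD44, AXL and MSN were not listed. VIM, the mesenchymal marker of the line, was at 46972 implied normalized counts in control and 81887 in shikonin. Of 14 markers of other cell types, 5 were listed (35.7%, against 50.2% of genes tested). All 5 were higher (25.5% of genes tested): CD14, LYZ, PECAM1, ACTA2 and ALB. Their implied means were 0.881 to 404 in control and 23.2 to 1807 in shikonin. The other 9, the leukocyte marker PTPRC and the T cell marker CD3E among them, were not listed. The part of such RNA in the members' values was not tested.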

How the data were processed

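NEBNext Ultra RNA libraries were made from total RNA of 3 control and 3 shikonin samples, per the labels' protocols. Tools named by the submitters' processing notes are DESeq2, fastp and HISAT2 2.0.5, with the build hg38. No source used here gives the read counter or annotation. The only table used is the authors' 1 comparison, with 0 columns of per-sample values. Per the file headers, the base mean is a signal: normalized counts averaged over the libraries. Its log2 fold change with standard error, Wald score, p-value and adjusted p are the authors' deposited values. All genes in it were checked to pass 0.05 after adjustment and 1.5-fold, the score equalled the log2 fold change over its standard error, and the sign matched the mark in 7150 genes. The tests planned for per-sample values could not be run on this table, so the authors' DESeq2 calls across all genes are used as deposited.

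Computed here (Python 3.11.15, pandas 2.3.3, scipy 1.17.1) were folds, 95% normal intervals from the standard error, implied group means (mean and fold solved with equal weight of both groups), the number of genes tested (14248 to 14261, from adjusted p, rank and p of 40 genes), lengths from GENCODE 29 (GRCh38, by Ensembl identifier, 7142 genes and all 37 members) and motif matches in RefSeq promoters. Solving for the number of genes tested was tried on simulated p-values. For the implied means, the simulated fold was the exact ratio of the simulated group means, so that run checks the arithmetic only. It cannot show how closely the implied means recover the real group means. Alternatives were equal implied totals, a fold of at least 2, an adjusted p below 0.001, a mean of at least 100, another transcript definition, a shorter promoter window and, added after the file was seen, an interval wholly beyond 1.5-fold.

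Every member is accounted for. In each other list the 2 listed genes with the largest and the 2 with the smallest log2 fold change were named, and in the list with 1 higher gene the second largest is RB1. Members, lists and motifs were chosen with earlier results of these data known.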

Additional observations from a re-analysis of the deposited data

How the results depend on the processing

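The count of 17 higher members became 9 with equal implied totals, 9 at a fold of at least 2 and 11 with the 95% interval wholly beyond 1.5-fold, an alternative chosen after seeing the data. It was 17 at an adjusted p below 0.001 and at a mean of at least 100. The 5 lower members passed each of these 5 alternatives. The median log2 fold change was 0.93 over the 22 listed members. Over only the members that still passed, it was 0.68 with equal totals (14 members) and 0.93 to 1.07 under the others. These medians are over different genes, so they do not show the size of the shift: with equal totals the value of each member drops by 0.39. Of the other mitotic genes, 54 higher and 48 lower became 26 and 48 with equal totals, 26 and 27 at a fold of at least 2 and 28 and 28 with the interval beyond 1.5-fold. They were 50 and 41 at an adjusted p below 0.001, and 54 and 47 at a mean of at least 100. Stricter thresholds can only remove genes, and equal totals can only remove higher ones, since genes that would enter are not held. Equal totals could change no sign, since the shift of 0.39 is smaller than any listed log2 fold change. With the transcript of longest coding sequence, rho between length and change over the members was -0.74. In promoters from 150 bases before to 50 after the start, 69.0% of members held TTTGAA (11.5% of all genes), 86.2% CCAAT (31.1%), 34.5% TTTAAA (8.84%), 6.90% TATAAA (9.42%) and 6.90% GCGGGAA (5.63%).

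No paired analysis was possible because the table holds no per-sample values. For the same reason the fits without each replicate, with edgeR or DESeq2 and with or without a filter on low counts were not run. Depth per library is unknown.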
